A study of Mus musculus with 8 samples.

Results

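The cells described here are oligodendrocytes of FireΔ/Δ mice that were assigned to Oligo2, Oligo3 or Oligo4 but that another clustering of the same cells put together with Oligo1. The authors grouped the cells into 4 clusters, Oligo1 to Oligo4, and also deposited clusterings made with 10, 80, 120 and 150 nearest neighbours, named k10, k80, k120 and k150. Of these k10 gave the most clusters, and the other 3 are called coarser here. A cell was called bordering when at least 1 of these 4 clusterings placed it in a cluster in which over 50% of all cells were Oligo1. This rule gave 954 of 5144 FireΔ/Δ cells of Oligo2 to Oligo4, in a series of 12581 cells, of which 6696 came from FireΔ/Δ mice. They were compared with the 1552 Oligo1 cells and with the remaining 4190 cells of Oligo2 to Oligo4 from the same mice.

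The libraries were made by droplet sequencing, which counts RNA molecules per cell by unique molecular identifiers (UMIs), from hippocampus and cortex of female mice. FireΔ/Δ mice (mouse 3 and mouse 6) lack the Fire super-enhancer in an intron of Csf1r, and Fire+/+ mice (mouse 1 and mouse 4) carry it. At 1 month and 18 days for mice 1 and 3, and 1 month and 16 days for mice 4 and 6, the genotypes were matched in age, with 2 mice per genotype and 1 library per tissue and mouse. The deletion leaves the brain without microglia but with perivascular macrophages, and it is present in every cell of the animal from conception on. What the labels call cortex was the rest of the left hemisphere after removal of the hippocampus. Barcodes occurring in more than 1 library belonged to 42 cells, 5 of them bordering.

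Mature oligodendrocytes wrap axons in myelin, and their transcriptomes differ gradually rather than in sharp steps, so the limits between clusters depend on how finely cells are grouped. C4b encodes complement component C4, which is cleaved during the classical and lectin pathways, and Serpina3n encodes a secreted inhibitor of serine proteases. Both genes are known to be high in reactive glia, including oligodendrocytes in disease and injury, and they mark Oligo1 in these data.

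Of the bordering cells, 557 were placed with Oligo1 by k10 and 397 by coarser clusterings only. The 557 cells placed by k10 came from all 3 clusters: 136 from Oligo2, 186 from Oligo3 and 235 from Oligo4. They made up 10.7% of FireΔ/Δ Oligo2 cells, 5.78% of Oligo3 cells and 36.0% of Oligo4 cells. The 397 others were nearly all Oligo4, and 387 of them were placed by k150 alone. With 95.1% of FireΔ/Δ Oligo4 cells bordering under 1 clustering or another, only 32 Oligo4 cells remained outside.

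The clusters behind the rule lay at different distances from its threshold. Oligo1 cells made up 91.1% of the 1011 cells in a k120 cluster, 70.4% of the 1645 cells in a large k10 cluster and 63.6% of the 217 cells in a small k10 cluster. Just inside the threshold was a k150 cluster of 2171 cells with 56.6% Oligo1, and just outside it a k80 cluster of 2364 cells with 49.6%. In the bordering cells placed by k150 alone, the mean log2 value of C4b was 0.88 in mouse 3 and 0.56 in mouse 6. The 85 FireΔ/Δ cells that only the k80 cluster would have added had values of 0.71 and 0.31, and the other remaining cells 0.59 in both mice.

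By library means of their markers, the bordering cells were oligodendrocytes in each of the 4 libraries, which does not show it cell by cell. Mean log2 values of Mbp lay between 5.18 and 5.55 in the 4 libraries of bordering cells and between 5.14 and 5.52 in the remaining cells, and Mog and Mag had similarly narrow ranges. In C4b and Serpina3n, the cells placed by k10 lay between Oligo1 and the remaining cells. The clustering that chose them drew on the same expression values, so this is a description and no check of their name. Cells placed by coarser clusterings only had levels of both genes far below Oligo1 and nearer to the remaining cells. The 2 groups are therefore described separately, as k10-placed and coarser-only cells.

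C4b lies on chromosome 17 of GRCm38 from 34728380 to 34743882, on the minus strand. Among k10-placed cells its mean log2 value was 2.61 and 2.48 in the hippocampus of mice 3 and 6, and 2.46 and 2.56 in their cortex. Oligo1 cells of the same libraries had 3.47, 3.42, 3.51 and 3.36 for C4b, and the remaining cells 0.71, 0.53, 0.37 and 0.66, so that each of the 4 libraries kept the same order without overlap. Coarser-only cells had C4b values of 0.93 and 0.57 in hippocampus and 0.79 and 0.62 in cortex, above the remaining cells in mouse 3 and close to them in mouse 6. Over the mice, k10-placed cells exceeded the remaining cells by 1.96 in C4b and stayed below Oligo1 by -0.91, while coarser-only cells differed from the remaining cells by 0.16, with 0.32 in mouse 3 and -0.0027 in mouse 6. For all 954 bordering cells the C4b difference was 1.25 from the remaining cells (1.41 in mouse 3 and 1.10 in mouse 6) and -1.62 from Oligo1. Because the clusterings drew on the expression compared here, differences between these groups are descriptions and were not tested.

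Serpina3n lies on chromosome 12 from 104406729 to 104414329, on the plus strand. Its mean log2 value in k10-placed cells was 0.90 and 0.92 in hippocampus and 0.99 and 0.74 in cortex, in the same order of mice. For Serpina3n, the Oligo1 values were 1.99, 2.07, 1.70 and 1.83, those of the remaining cells 0.21, 0.18, 0.093 and 0.18, and those of coarser-only cells 0.091, 0.13, 0.13 and 0.15. Relative to the distance between remaining cells and Oligo1, k10-placed cells stood further along for C4b, at a position of 0.68, than for Serpina3n, at 0.42, where 0 stands for the remaining cells and 1 for Oligo1.

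**Figure D1:**
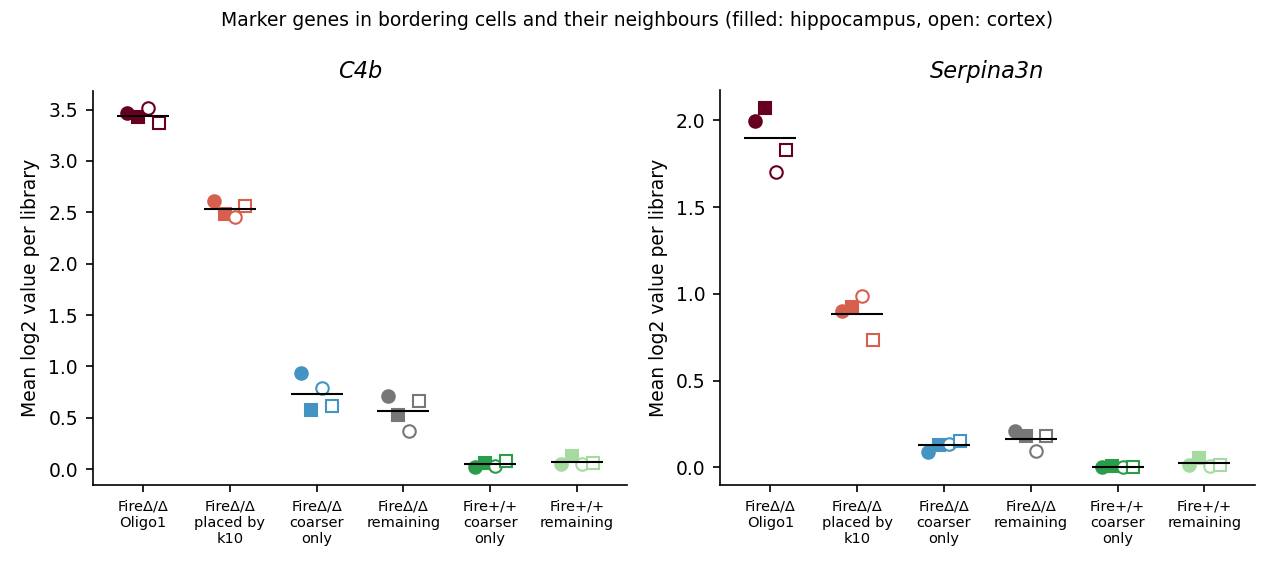
Mean log2 values of C4b and Serpina3n (vertical axes) in each library for groups of cells (horizontal axis). Filled symbols are hippocampus, open symbols cortex, circles mouse 3 or mouse 1, squares mouse 6 or mouse 4, and lines the mean of the libraries. FireΔ/Δ cells placed by k10 lie between Oligo1 and the remaining cells in every library, with C4b from 2.46 to 2.61, and those placed by coarser clusterings only lie nearer to the remaining cells.

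Cell by cell, C4b was found in most k10-placed cells. To compare cells at equal depth, every cell was thinned to 5000 UMIs, which left out 0 cells. A C4b UMI was then found in 87.1% of k10-placed cells (95% Clopper-Pearson interval 84.0% to 89.7%), against 97.0% of Oligo1 cells and 25.2% of the remaining FireΔ/Δ cells. Coarser-only cells had one in 34.3% (29.6% to 39.2%), and before thinning these 4 shares were 94.1%, 98.8%, 33.6% and 44.1%. In Fire+/+ cells outside the border the share was 3.53%, at a median depth of 10803 UMIs before thinning against 11161 in k10-placed cells. Fire+/+ libraries held only 6 Oligo1 cells. Their share therefore does not measure C4b RNA that may reach FireΔ/Δ droplets from Oligo1 cells, and this background was not measured. The median number of C4b UMIs per thinned cell was 4 in k10-placed cells, 7 in Oligo1 and 0 in both other FireΔ/Δ groups. In the cortex of mouse 3 the share was lower than elsewhere, 69.8% of 63 k10-placed cells, against 89.8%, 89.1% and 87.8% in the hippocampus of mouse 3, the hippocampus of mouse 6 and the cortex of mouse 6. Intervals on shares of cells cover counting error only.

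Serpina3n UMIs were found in 41.3% of thinned k10-placed cells and 74.1% of thinned Oligo1 cells, pooled over libraries. Which of Serpina3n and C4b lay further below Oligo1 in mean log2 value differed by mouse. The k10-placed differences were -0.90 for Serpina3n and -0.96 for C4b in mouse 3, and -1.12 and -0.87 in mouse 6. After thinning, UMIs of both genes were found together in 72.6% of Oligo1 cells, 38.2% of k10-placed cells, 2.27% of coarser-only cells and 5.49% of the remaining cells.

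**Figure D2:**
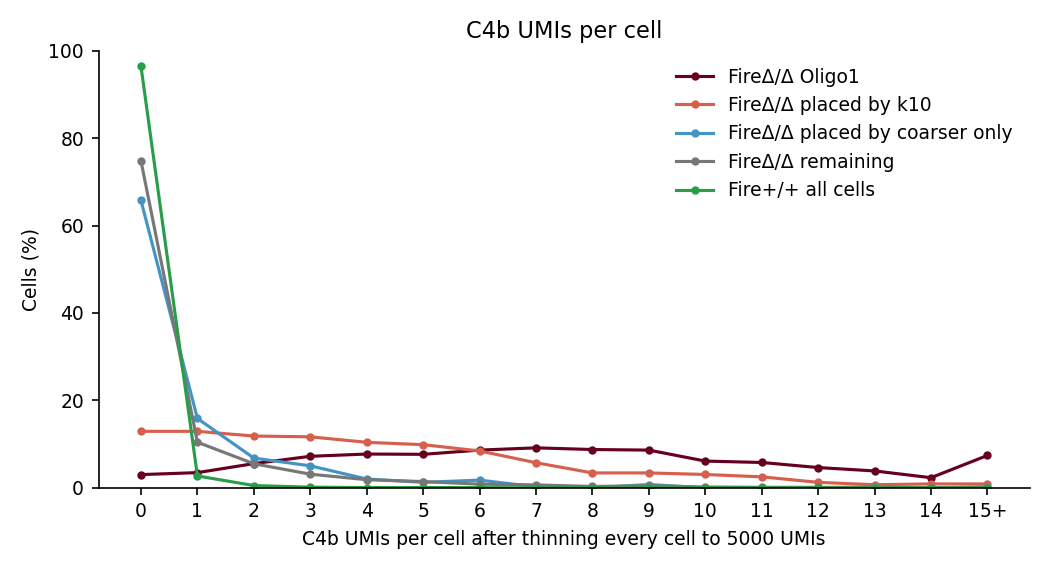
Share of cells (vertical axis, percent) by number of C4b UMIs (horizontal axis, 15 or more in the last place) after thinning each cell to 5000 UMIs. Cells placed by k10 spread over intermediate numbers with a median of 4, while cells placed by coarser clusterings only are mostly at 0, as are the remaining FireΔ/Δ cells.

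The k10-placed cells differed among themselves by the cluster they were assigned to. In C4b and Serpina3n, those from Oligo2 came nearest to Oligo1, from which they were lower in C4b in 3 of 4 libraries. Their C4b was 3.05 and 3.20 in hippocampus and 3.43 and 3.40 in cortex, and their Serpina3n was 1.84, 1.75, 2.08 and 1.85. Remaining Oligo2 cells had C4b at 1.15, 0.97, 0.56 and 0.85 and Serpina3n at 0.46, 0.44, 0.18 and 0.37. Those from Oligo3 had raised C4b, with 2.34, 2.12, 1.51 and 2.08 against 0.56, 0.38, 0.29 and 0.58 in remaining Oligo3 cells, and their Serpina3n, at 0.41, 0.42, 0.15 and 0.32, was above the 0.13, 0.091, 0.057 and 0.097 of remaining Oligo3 cells. Cells from Oligo4 lay between, with C4b at 2.54, 2.42, 2.34 and 2.65 and Serpina3n at 0.71, 0.93, 0.55 and 0.60. Both genes were found together in 74.3% of thinned cells from Oligo2, 18.8% of those from Oligo3 and 32.8% of those from Oligo4.

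Ptgds differed among k10-placed cells by assigned cluster. This gene, for a prostaglandin D synthase whose RNA is abundant in some mature oligodendrocytes, had mean log2 values of 3.03, 3.16, 2.85 and 3.92 in k10-placed Oligo2 cells and 3.82, 4.23, 3.55 and 3.47 in remaining Oligo2 cells. In those from Oligo3 Ptgds was 7.36, 7.48, 7.14 and 7.27, and in those from Oligo4 6.90, 7.01, 6.59 and 7.14, against 5.55, 6.14, 5.82 and 6.19 in Oligo1. Oligo1 was itself uneven: its cells in the small k10 cluster had Ptgds at 2.48 and 3.95 in mice 3 and 6, against 2.13 and 2.61 for the Oligo2 cells of that cluster.

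Klk6, a secreted serine protease made by a subset of mature oligodendrocytes, was high in the small k10 cluster, in Oligo1 and Oligo2 cells alike. It lies on chromosome 7 from 43824499 to 43832030. Klk6 had mean log2 values of 1.87, 2.24, 1.88 and 1.18 in all k10-placed Oligo2 cells of the 4 libraries, higher than in the remaining Oligo2 cells (0.60, 0.56, 0.63 and 0.72) and than in Oligo1 (0.56, 0.90, 0.68 and 0.73), and was at most 0.08 in k10-placed cells of Oligo3 and Oligo4. The small k10 cluster held 138 Oligo1 and 79 Oligo2 cells, with Klk6 in mice 3 and 6 at 2.22 and 2.57 among its Oligo1 cells and 2.88 and 2.70 among its Oligo2 cells. The large k10 cluster had lower Klk6, at 0.33 and 0.76 for Oligo1 and 0.53 and 0.80 for Oligo2. C4b in the small cluster reached 3.77 and 3.84 for Oligo1 and 3.60 and 3.38 for Oligo2, while Serpina3n was 2.93 and 3.09 against 2.34 and 2.16, and Il33 2.60 and 1.85 against 0.66 and 0.81. In the large cluster C4b was 3.44 and 3.43 for Oligo1, 2.58 and 3.08 for Oligo2, 2.14 and 2.11 for Oligo3 and 2.51 and 2.49 for Oligo4, so cells grouped by k10 differed in it.

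Il33, a nuclear cytokine released from damaged cells, was above the remaining cells by 0.49 in k10-placed cells and differed by -0.16 in coarser-only cells, and k10-placed cells were below Oligo1 by -0.90. In k10-placed Oligo3 cells its mean log2 value was 3.08 and 2.41 in hippocampus and 2.79 and 1.92 in cortex, above the 1.88, 1.16, 2.12 and 1.56 of the remaining Oligo3 cells and below the 3.14, 2.61, 2.89 and 2.30 of Oligo1. Compared with remaining cells of their own cluster, k10-placed Oligo3 cells were further lower in Glul (-0.76), the glutamine synthetase gene, in Apoe (-0.69), which encodes a lipid carrier, and in Hcn2 (-0.69), an ion channel gene. The matching contrast in Oligo2 was led after C4b (2.39), Serpina3n (1.52) and Klk6 (1.16) by Neat1 (0.65), a nuclear long non-coding RNA, and was lowest for Serpinb1a (-0.47). The k10-placed cells from Oligo4 exceeded all coarser-only cells, nearly all of them Oligo4, by 1.76 in C4b, 1.04 in Neat1, 0.62 in Il33 and 0.57 in Serpina3n. Genes of these contrasts by assigned cluster, and Klk6 and Ptgds, were chosen after their values were seen.

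**Figure D3:**
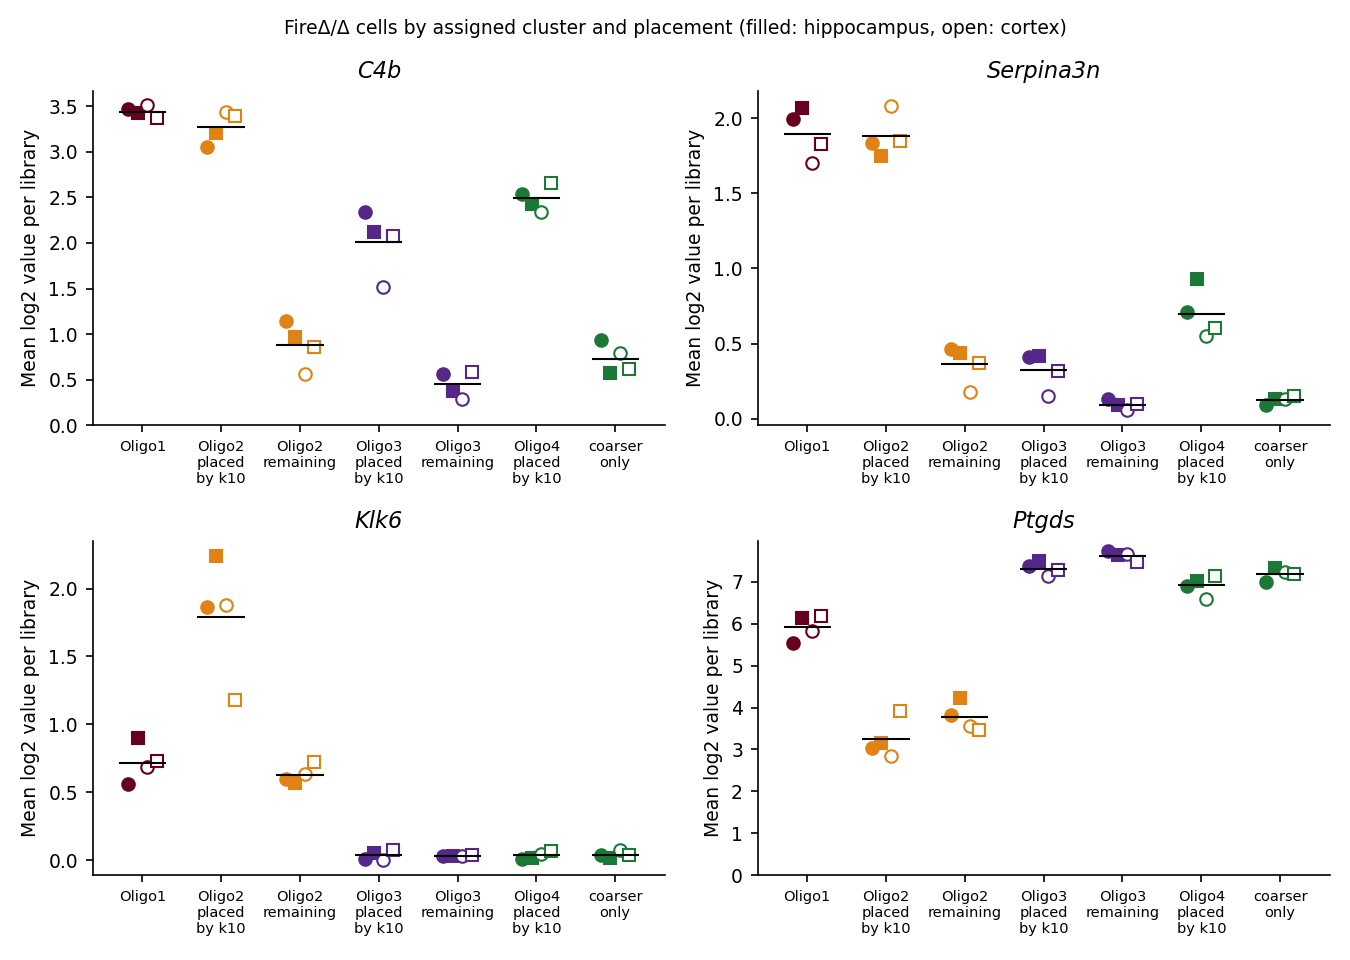
Mean log2 values per library (vertical axes) of C4b, Serpina3n, Klk6 and Ptgds in FireΔ/Δ cells by assigned cluster and placement (horizontal axis), with symbols for tissue and mouse and lines for the mean of the libraries. Oligo2 cells placed by k10 come nearest to Oligo1 in C4b and Serpina3n and have the highest Klk6, while Ptgds differs by assigned cluster.

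Across all bordering cells, several genes besides C4b were above the remaining cells in all 4 libraries. Plekha1, which encodes a phosphoinositide-binding protein, was higher by 0.83, the tetraspanin gene Cd9 by 0.76, the myelin proteolipid gene Mal by 0.72 and Opalin, a membrane glycoprotein gene of oligodendrocytes, by 0.68. Grb14 (0.62), Slc9a3r2 (0.62), the claudin gene Cldn11 (0.59), Man1a (0.53), the tetraspanin gene Tspan2 (0.52) and the lysophosphatidic acid receptor gene Lpar1 (0.49) were also among the highest. The 8 lowest were Glul (-1.48), the G protein subunit gene Gng11 (-1.36), Pex5l (-1.13), Apoe (-1.10), Sez6l2 (-1.01), the transcription factor gene Etv1 (-0.97), Serpinb1a (-0.92) and the anillin gene Anln (-0.82).

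Differences in these genes other than C4b were larger in the coarser-only than in the k10-placed cells. Plekha1 exceeded the remaining cells by 1.2 in the former and 0.59 in the latter, and in coarser-only cells Mal was higher by 1.11 and Opalin by 1.05, with Glul at -2.03. For Plekha1, the values of coarser-only cells overlapped between the genotypes. They were 2.61, 2.33, 2.20 and 2.23 in Fire+/+ cells (hippocampus of mice 1 and 4, then cortex) and 2.16, 2.57, 2.03 and 2.53 in FireΔ/Δ cells. With Oligo4 cells left out, an alternative chosen after seeing the data, most of these differences were smaller: Plekha1 was at 0.16, Mal at 0.20, Opalin at 0.15, Lpar1 at 0.075, Gng11 at -0.37 and Sez6l2 at -0.16. Anln no longer was lower in bordering cells, at 0.073.

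Against Oligo1, bordering cells were higher in Malat1 (0.64), a nuclear long non-coding RNA, Ptgds (0.58), Lpar1 (0.58), Clmn (0.55), Ttyh1 (0.48), the growth factor gene Ptn (0.44), Ccp110 (0.40), Sh3gl3 (0.38), Prickle1 (0.38), Nudt4 (0.37), Bin1 (0.37) and Plekha1 (0.36). Without the Oligo4 cells, Ptgds (-0.30), Plekha1 (-0.31), Sh3gl3 (-0.019) and Prickle1 (-0.0019) were no longer higher, and Ttyh1 (0.0046) and Ptn (0.0036) were close to 0. All bordering cells were lower in C4b (-1.62), Serpina3n (-1.31), Il33 (-1.17), Neat1 (-1.04), the lipid-binding protein genes Fabp5 (-0.82) and Apod (-0.81), the transferrin gene Trf (-0.77) and Ly6a (-0.58), of which Apod was at -0.017 and Neat1 at -0.34 without the Oligo4 cells.

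Over the genes that separate Oligo1 from the remaining cells by at least 0.5 in both mice, 30 in number and 18 of them higher in Oligo1, the median position of bordering cells was 0.61 (0.68 in mouse 3 and 0.51 in mouse 6). It depended on the choice of genes and cells. The median was 0.340 over the 4 genes differing by at least 1 and 0.642 over the 149 differing by at least 0.25. Compared within assigned clusters, it was 0.388. Genes higher in Oligo1 had a median position of 0.34 and genes lower in Oligo1 of 1.16, which is past Oligo1. Oligo4 cells weighed on this: without them the median over all genes was 0.475, and Glul and Gng11 differed from the remaining cells by -0.58 and -0.37 where they had differed by -1.48 and -1.36. Lowest were Neat1 (-0.13), Trf (-0.0028), Malat1 (0.042) and Lbh (0.079), and highest Etv1 (1.53), Gng11 (1.51), Serpinb1a (1.49) and Glul (1.36). Split by placement, k10-placed cells had medians of 0.45 for the higher and 0.99 for the lower genes, and coarser-only cells 0.098 and 1.48. Over all 30 genes the medians were 0.664 in k10-placed and 0.656 in coarser-only cells, so this median did not separate the 2 groups. When the genes were taken from mouse 3 and the positions from mouse 6, the k10-placed median was 0.64 over 38 genes, and with the mice exchanged 0.64 over 36 genes. For coarser-only cells these medians were 0.50 and 0.57.

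**Figure D4:**
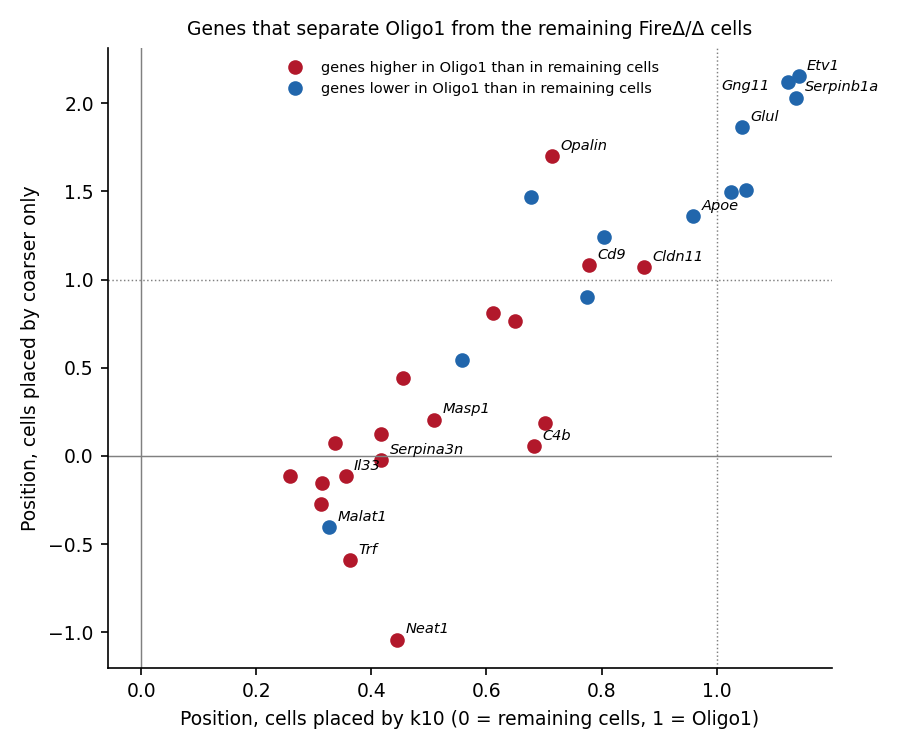
Position of each of 30 genes between the remaining FireΔ/Δ cells (0) and Oligo1 (1), for cells placed by k10 (horizontal axis) and cells placed by coarser clusterings only (vertical axis), as a mean of 2 mice. C4b and Serpina3n lie near 0 in coarser-only cells and between 0 and 1 in k10-placed cells, Glul and Etv1 lie past 1 in both, and other genes of either direction are spread over a wide range in coarser-only cells, from Neat1 at -1.04 to Etv1 at 2.15.

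A list of 10 genes that the study ties to Oligo1, chosen by its authors on these cells and so not independent evidence, gave 10 of 10 higher in k10-placed than in remaining cells in all 4 libraries, where 13.9% of 9337 genes were. Besides C4b (1.96) and Serpina3n (0.72), the differences were 0.27 for Trf, 0.23 for the annexin gene Anxa2 and 0.14 for Snx10. All 10 were lower than in Oligo1 in each library, against 10.8% of all genes. In coarser-only cells 0 of 10 were higher than in remaining cells in all 4 libraries, against 18.4% of all genes. A median of 3 of the 10 genes had a UMI in a thinned k10-placed cell, against 4 in Oligo1 and 1 in the coarser-only and the remaining cells.

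Complement genes other than C4b were few. Of 5 measured well enough, 3 were higher in k10-placed cells in all 4 libraries, where 13.9% of all genes were: C4b, Masp1 (0.33), a protease of the lectin pathway, and Cd59a (0.18), an inhibitor of the membrane attack complex. Masp1 had mean log2 values of 0.50, 0.55, 0.54 and 0.43 in k10-placed cells, between 0.94, 0.88, 0.74 and 0.71 in Oligo1 and 0.21, 0.20, 0.13 and 0.17 in the remaining cells. Among 5 serpin and kallikrein genes 2 were higher, Serpina3n and Klk6 (0.30). Lower was 1, Serpinb1a (-0.70), where 12.4% of all genes were lower in all 4 libraries. With Oligo4 cells left out, Serpinb1a differed by -0.31 between bordering and remaining cells.

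Genes of gp130 and STAT3 signalling, through which cytokines of the interleukin 6 family act, were higher for 5 of 11 and lower for 1, against 13.9% and 12.4% of all genes. Stat3, the transcription factor, had mean log2 values of 0.87, 0.90, 0.72 and 0.88 in k10-placed cells, 0.46, 0.55, 0.46 and 0.53 in the remaining cells and 0.97, 1.01, 0.83 and 0.86 in Oligo1, so that the k10-placed cells were nearer to Oligo1. Its feedback inhibitor Socs3 was at 0.16, 0.10, 0.16 and 0.10 against 0.43, 0.24, 0.37 and 0.19 in Oligo1 and 0.02, 0.02, 0.01 and 0.01 in the remaining cells. Cebpd, a transcription factor gene induced by STAT3, differed from the remaining cells by 0.23. The receptor gene Cntfr, by 0.28 higher in k10-placed cells, was by 0.53 higher in coarser-only cells, where Stat3 differed by 0.06.

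Counts for other lists are to be read against 13.9% of all genes higher and 12.4% lower. All list counts mix assigned clusters. Oligo4 gave 235 of the 557 k10-placed cells but few of the remaining cells, since 95.1% of FireΔ/Δ Oligo4 cells were bordering. Higher in all 4 libraries of k10-placed cells were 4 of 8 interferon and MHC class I genes (Ifi27 0.24, H2-D1 0.13), 5 of 10 immediate early genes (Fos 0.15, Junb 0.09) and 7 of 20 lysosomal genes (Cd9 0.66, Cd63 0.39, Ctsb 0.17). Of 15 myelin genes 8 were higher and 3 lower, led by Cldn11 (0.54), Mal (0.47) and Opalin (0.45). The count of higher genes was 9 in coarser-only cells, where 18.4% of all genes were. With Oligo4 cells left out, bordering cells exceeded the remaining cells by 0.44 in Cldn11, 0.20 in Mal, 0.15 in Opalin and 0.41 in Cd9. Of 20 genes marking subtypes of mature oligodendrocytes, 4 were higher and 9 lower. Of 19 actin-linked genes 7 were higher and 2 lower than in the remaining cells. Against Oligo1, 11 of the 19 were below and 0 above, where 10.8% of all genes were below and 9.33% above. For heat shock the count was 3 of 10 higher, for endoplasmic reticulum stress 3 of 10, for cholesterol synthesis 5 of 21 and for TGF-beta signalling 1 of 9. Lists with more lower than higher genes included fatty acid and galactolipid synthesis (6 of 20 lower, 3 higher), lipid transport (5 of 13 lower, 1 higher) and glucocorticoid response (4 of 11 lower, 2 higher). In coarser-only cells, 9 of 20 lysosomal genes were higher, with Cd9 at 0.91, where 18.4% of all genes were. Also higher there were 3 of 8 interferon and MHC class I genes and 3 of 10 immediate early genes. Heat shock and endoplasmic reticulum stress gave 3 of 10 each, cholesterol synthesis 5 of 21 and TGF-beta signalling 3 of 9.

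RNA of other cell types gave these values. The summed mean normalized UMIs of 7 astrocyte genes, of which Slc1a2 was the most abundant, were 0.99, 1.8, 1.22 and 1.16 in bordering cells and 1.98, 2.46, 1.96 and 2.0 in the remaining cells, with Oligo1 at 1.09, 1.63, 1.23 and 1.36. In k10-placed cells 4 of the 6 astrocyte genes tested were lower in all 4 libraries and 1 was higher, against 12.4% and 13.9% of all genes. Astrocytes also express Glul and Apoe at high levels, and the part of astrocyte RNA in their differences was not tested. Csf1r was at 0.00 in each library of bordering cells. Haemoglobin genes summed to 12.5 and 5.13 in the bordering cells of hippocampus and 0.34 and 0.60 in cortex. Of the 954 cells, 2 held over 10 haemoglobin UMIs each, 1 in each hippocampus library. In bordering cells sums were at most 0.31 for 5 oligodendrocyte progenitor genes, 0.48 for 5 neuronal genes, 0.49 for 5 endothelial genes and 0.15 for 5 mural and fibroblast genes. In k10-placed cells alone these 4 maxima were 0.40, 0.80, 0.69 and 0.22, and haemoglobin genes summed to 19.5 and 10.3 in hippocampus. No doublet caller was run, and the authors gated cells by scatter to remove doublets. Median depth per FireΔ/Δ cell was 11161 UMIs in k10-placed, 12597 in coarser-only, 10882 in remaining and 10746.5 in Oligo1 cells, and median mitochondrial shares were 4.33%, 4.67%, 5.34% and 4.13%.

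Bordering cells took a larger share of Oligo2 to Oligo4 cells in hippocampus than in cortex. In FireΔ/Δ hippocampus the share was 20.2% in mouse 3 (389 of 1925 cells, 95% interval 18.4% to 22.1%) and 24.0% in mouse 6 (357 of 1486, 21.9% to 26.3%). In cortex it was 10.1% (94 of 927, 8.27% to 12.3%) and 14.1% (114 of 806, 11.8% to 16.7%). The tissue means, 22.1% ± 2.70 and 12.1% ± 2.83 (SD, n = 2 mice), differed by 9.97 percentage points, 10.1 in mouse 3 and 9.88 in mouse 6. Both tissues came from the same mice, and exchanging them within mice, a test added after the data were seen, gave an exact p of 0.5, the smallest that 2 mice allow. A two-sided exact permutation that treats the 4 libraries as independent gave p = 0.33, also its smallest. For k10-placed cells alone the tissue difference was 4.26 points. With bordering cells taken as a share of all oligodendrocytes, Oligo1 included, the tissue difference was 5.53 points.

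The same clusters held 349 of 5879 Fire+/+ cells of Oligo2 to Oligo4. By mouse, the bordering share was 17.1% ± 2.76 in FireΔ/Δ and 6.33% ± 3.33 in Fire+/+ mice (SD, n = 2), a difference of 10.8 points with an exact permutation p of 0.33. The clusters were built from genes that differ between the genotypes, so these shares describe the clusters and are no separate evidence of a genotype effect. Placement by k10 carried the difference, with 10.1% ± 0.465 against 0.170% ± 0.0988, whereas coarser-only cells made up 7.01% ± 2.30 and 6.16% ± 3.23, a difference of 0.851 points with an exact permutation p of 0.667. Only 9 Fire+/+ cells were placed by k10, and the 1123 cells from cortex of mouse 4 held 0, so a share of 0.267% or less could have gone unseen. Each batch held 1 library of each genotype from the same tissue, and within the 4 batches the k10-placed share was higher in FireΔ/Δ by 12.7, 6.72, 11.2 and 9.18 points.

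**Figure D5:**
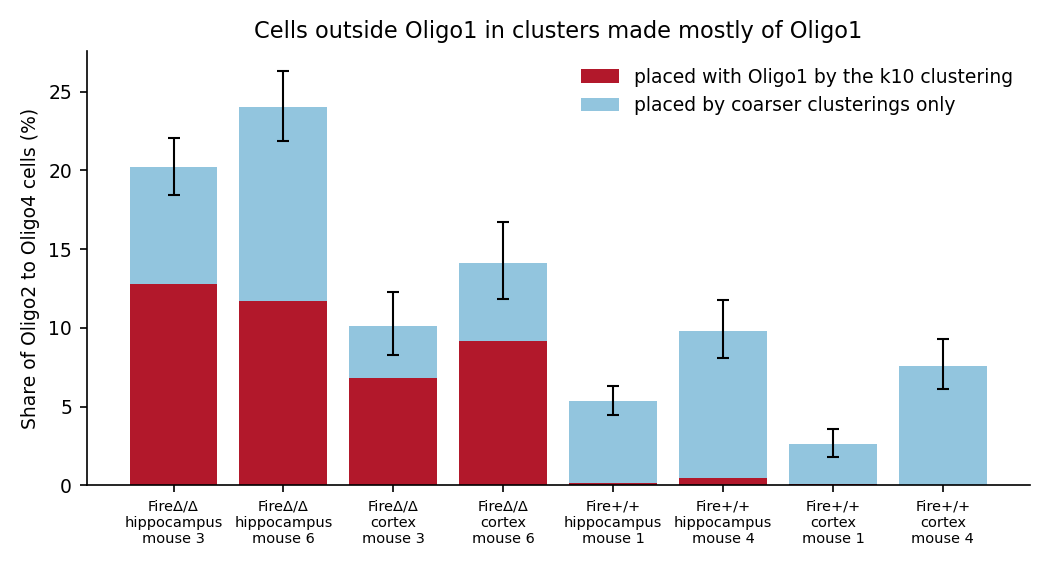
Share of Oligo2 to Oligo4 cells (vertical axis, percent) in clusters with over 50% Oligo1, by library (horizontal axis), split into cells placed by k10 and by coarser clusterings only. Error bars are 95% Clopper-Pearson intervals of the whole share, which cover counting error only. Placement by k10 is nearly limited to FireΔ/Δ libraries, at 6.80% to 12.8%, and placement by coarser clusterings occurs in every library.

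Between tissues, bordering cells showed no gene past the threshold in limma. Of 9361 genes tested over the 4 FireΔ/Δ libraries, 0 (0%) passed after adjustment and 358 reached an unadjusted p under 0.05, while edgeR called 1 and DESeq2 called 2. The calls were the haemoglobin genes Hbb-bs in both tools and Hba-a1 in DESeq2, named after their values were seen, and the 2 cells with over 10 haemoglobin UMIs both came from hippocampus. Whether those cells account for the calls was not tested. C4b in bordering cells was 1.99 and 1.5 in hippocampus and 1.91 and 1.88 in cortex, so the tissues overlapped, and the difference of -0.15 (SE 0.18) had an adjusted p of 1.00 in limma. This fit treats the 4 libraries as independent, although both tissues came from the same mice. It also pools k10-placed and coarser-only cells, which are mixed in different shares in each library. In k10-placed cells alone, C4b was 2.61 and 2.48 in hippocampus and 2.46 and 2.56 in cortex.

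Setting the bordering cells aside did not remove C4b from the remaining FireΔ/Δ cells. The mouse means of C4b outside the border were 0.54 and 0.60 in FireΔ/Δ mice 3 and 6 and 0.05 and 0.09 in Fire+/+ mice 1 and 4. The difference was 0.50 (SE 0.03), against 0.70 (SE 0.03) with bordering cells of both genotypes kept, and the groups did not overlap in either comparison. Neither passed limma's threshold, with adjusted p of 0.95 and 0.748. C4b RNA that may reach FireΔ/Δ droplets from Oligo1 cells was not measured, and its part in these differences was not tested. Outside the border limma called 0 of 9213 genes (0%), with 123 at an unadjusted p under 0.05, 2 called by edgeR and 13 by DESeq2. With the border included it called 0 of 9232 (0%), with 133 at an unadjusted p under 0.05, 3 called by edgeR and 15 by DESeq2.

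The edgeR calls outside the border were C1qa and C1qb, genes of the first complement component made by microglia, both lower in FireΔ/Δ mice. For C4b edgeR gave an adjusted p of 0.0515 outside the border and 0.0318 with it, where Cebpd and C1qb also passed. DESeq2 called C4b and Serpina3n in both comparisons, with log2 fold changes for C4b of 3.68 (SE 0.27, adjusted p 6.79e-38) and 4.34 (SE 0.27, adjusted p 2.90e-54). These genes were named after their values were seen. Whether the difference changed between the comparisons was not tested, since they share cells. Within batches, C4b outside the border was higher in FireΔ/Δ by 0.66, 0.32, 0.41 and 0.60. The part of C4b RNA from Oligo1 cells was not tested here either.

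Coarser-only cells exist in both genotypes in like numbers, 397 and 340, which allowed a comparison added after the data were seen. C4b was 0.86 and 0.59 in the FireΔ/Δ mice and 0.02 and 0.07 in the Fire+/+ mice, a difference of 0.68 (SE 0.10), and within batches it was 0.92, 0.76, 0.51 and 0.54. After thinning, a C4b UMI was found in 34.3% of FireΔ/Δ and 2.35% of Fire+/+ coarser-only cells (8 of 340, 1.02% to 4.58%). C4b RNA that may reach FireΔ/Δ droplets from Oligo1 cells was not measured, and its part in this difference was not tested. In limma 0 of 9368 genes (0%) passed and 271 reached an unadjusted p under 0.05. For C4b the limma adjusted p was 1.00. The 6 calls by edgeR were C4b (adjusted p 2.17e-05), Serpina3n, Aldh1l2, Piezo2 and Neat1, all higher in FireΔ/Δ mice, and 9330117O12Rik, which was lower, and DESeq2 called 5. Neat1, for example, was 0.97 and 1.05 against 0.64 and 0.37, with a within-batch difference from 0.28 to 0.72. Outside the border its within-batch differences were 0.24, 0.045, 0.89 and 1.14, so the Neat1 difference was not particular to coarser-only cells. DESeq2 also called C4b, Serpina3n, Aldh1l2 and 9330117O12Rik outside the border, in the same directions.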

How the data were processed

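Libraries were 10x Genomics single-cell libraries of 8 samples, made from viable cells sorted by the authors, who then kept clusters with oligodendrocyte markers. The authors counted UMIs with Cell Ranger 5.0.0 on the mouse genome (mm10, GRCm38), removed cells of low depth or high mitochondrial share, and normalized with scran. As deposited, values are log2 of 1 plus UMIs divided by the size factor of the cell, for 18833 genes, without batch correction. A deposited table gives total UMI counts per cell, the size factors as scores, and the clusters used for the rule. In the same table the authors give mitochondrial UMIs as a percent of the cell total. Multiplying back by the size factor gave the UMIs, all whole within 0.001, and gene positions came from GENCODE for GRCm38. The members and lists were chosen with earlier results of these data known.

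Log2 values were averaged per library, then over both tissues of a mouse. Tests covered genes detected in 5% of cells or more and used limma 3.58.1 in R 4.3.3 with Benjamini-Hochberg adjustment at 0.05, with edgeR 4.0.16 and DESeq2 1.42.0 on summed UMIs as alternatives. These fits were tested on simulated data, where limma with a block, which leaves 1 residual degree of freedom, called too many genes. A first simulation with faulty scaling failed for limma and was replaced, and the limits to be met were set after that. Shares were compared by two-sided exact permutation, with 95% Clopper-Pearson intervals. The mouse numbers pair the tissues because both libraries of a number come from the same animal, and the deviations of hippocampus and cortex in bordering cells had a correlation of 0.67 across 9361 genes, which are not independent replicates.

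Genes named are C4b and Serpina3n, the largest members of a gene list, genes from the 12 highest and 8 lowest differences of bordering cells from remaining cells and from Oligo1 with the same sign in all 4 FireΔ/Δ libraries, the 4 highest and 4 lowest positions, and up to 5 calls in each direction from a test. Others are marked where they appear. Alternatives were other thresholds for the rule, single clusterings, single tissues, comparison within assigned clusters and cells of middle depth. Others were shares of all oligodendrocytes, other scales and filters, blocks for mouse or age, and each mouse left out.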

Additional observations from a re-analysis of the deposited data

Results flagged for a closer look

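Trf, the transferrin gene, differed in direction between tissues when bordering cells were compared with the remaining FireΔ/Δ cells. In hippocampus its mean log2 value was 5.56 in bordering and 5.63 in remaining cells of mouse 3, and 4.94 and 5.04 in mouse 6. In cortex it was 5.82 and 5.67 in mouse 3, and 5.17 and 5.16 in mouse 6, where the 2 groups of cells were almost level. The hippocampus difference minus the cortex difference was -0.16 on the log2 scale, which drew attention because the sign was the same within each tissue and opposite between them. Trf was above the remaining cells by 0.27 in k10-placed cells and differed by -0.44 in coarser-only cells, and the 2 kinds are mixed in different shares in each library. The difference between tissues was not tested.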

How the results depend on the processing

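C4b and Serpina3n kept their direction against both groups under every alternative run except that Serpina3n was no longer above the remaining cells when k10-placed cells were left out (-0.039), and sizes moved with the rule. C4b against the remaining cells and against Oligo1 was 1.93 and -0.93 with clusters over 60% Oligo1, 1.75 and -0.98 for cells placed by at least 2 clusterings, 1.95 and -0.91 with k10 alone, 1.8 and -0.89 with k120 alone, 0.61 and -2.11 with k150 alone, 0.16 and -2.71 without k10-placed cells and 1.99 and -0.88 without Oligo4 cells. On a scale of log2 of the mean plus 0.1 it was 2.06 and -1.34, plus 1 it was -1.19 against Oligo1, and over 40% it was -1.75. Serpina3n in the same pairs was 0.71 and -1.03 over 60%, 0.72 and -1.01 with k10 alone, 0.093 and -1.58 with k150 alone, 0.83 and -0.90 without Oligo4 cells, 1.82 and -2.09 with 0.1 added and 0.70 against remaining cells with 1 added. Against Oligo1 it was -1.77 without k10-placed cells, -1.47 in hippocampus and -1.14 in cortex. The k80 clustering alone gave no bordering cells. The median position was 0.340 over the 4 genes differing by at least 1 and 0.642 over the 149 differing by at least 0.25. It was 0.847 for at least 2 clusterings, 0.752 with k120 alone, 0.749 with k150 alone and 0.486 in hippocampus. Within assigned clusters it was 0.388, without Oligo4 cells 0.475, and with a mouse left out 0.443 to 0.675. Without Oligo4 cells, an alternative chosen like that without k10-placed cells after seeing the data, Anln against remaining cells was 0.073, and against Oligo1 Ptgds was -0.30, Sh3gl3 -0.019, Prickle1 -0.0019 and Plekha1 -0.31. Most other named genes also came nearer to 0 in that alternative. Within assigned clusters Lpar1 was 0.012 and Tspan2 0.068 against remaining cells. Shares kept their direction, at 1.36 to 10.5 points between tissues and 0.851 to 14.5 points between genotypes. As shares of all oligodendrocytes, Oligo1 included, the differences were 5.53 points between tissues and 7.13 points between genotypes. In limma the replicate block for mouse left 0 genes between tissues, with 1014 at an unadjusted p under 0.05, a number not to be relied on because this fit was too liberal on simulated data, and 358 without the block, and changed no other call. Counts by edgeR and DESeq2 were 1 and 2 between tissues, 2 and 13 outside the border, 3 and 15 with it and 6 and 5 in coarser-only cells, and limma with 0.1 added gave 1, 1, 2 and 4, and without a filter 1 with the border included. The cause of these changes was not tested.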
